A study of Homo sapiens with 4 samples.

Results

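The leukocyte immunoglobulin-like receptors (LILR) and LAIR1 were followed in MV4-11 cells, a human acute myeloid leukemia (AML) cell line, after knockdown of ANP32B by short hairpin RNA (shRNA). RNA was sequenced from 2 control libraries, called sh-NC, and from 2 libraries with ANP32B knockdown (sh-ANP32B). In the table the knockdown columns carry a short mark in place of the shRNA's name, and the labels do not say which of the study's hairpins was used. The labels enter no shRNA and no treatment for the controls, while the study describes an sh-NC control. If the controls carried no vector, any effect of the vector itself cannot be told apart from that of the knockdown. All 4 libraries come from 1 cell line, nothing says that they came from separate cultures, and the p-values measure the spread between these libraries only, which may be technical. The genes were taken by name: LILRA1, LILRA2, LILRA5, LILRA6, LILRB1, LILRB2, LILRB3, LILRB4 and LAIR1. Of these 9, 7 had a row among the 18885 genes of the deposited table, each with 1 row, and LILRA5 and LILRB4 had none under their identifiers.

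LILR proteins are immunoglobulin-like receptors on monocytes, macrophages, dendritic cells and other leukocytes. The LILRB receptors carry immunoreceptor tyrosine-based inhibitory motifs (ITIM) in their cytoplasmic tails and recruit tyrosine phosphatases such as SHP-1, encoded by PTPN6. The LILRA receptors of this set have short tails and signal through the Fc receptor gamma chain, encoded by FCER1G, which carries an activating motif (ITAM). LAIR1 is a related inhibitory receptor that binds collagens. LILRB4 is known as a marker of monocytic AML.

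Values are TPM (transcript abundances scaled to a fixed library total), a read density over transcript length, so levels can be set side by side between genes. Read numbers cannot be had from TPM, and neither depth nor counting errors are known. ANP32B had 358 and 364 TPM in sh-NC and 54.1 and 49.3 TPM in sh-ANP32B. In limma on log2(TPM + 1), 3024 of the 16937 genes tested were higher (17.9%) and 1712 were lower (10.1%), with a log2 fold change beyond 0.5 and an adjusted p (Benjamini-Hochberg) below 0.05. Lower genes made up 36.1% of these calls, and 50.2% after quantile normalization, which moved the median of all genes from 0.08 to -0.04 on the log2 scale. Of 15 markers of T, B and NK cells, platelets and red cells, 10 had no row, among them CD3D, CD3E, CD3G and MS4A1, and the summed TPM of the other 5 ran from 132 to 134 in sh-NC and from 120 to 124 in sh-ANP32B. Most of that sum was NKG7 and NCAM1. Of 6 genes chosen to check the line, MPO had no row, FLT3 stood between 5.52 and 6.30 TPM, and HOXA9 between 175 and 186 TPM, while PTPRC was higher (log2 fold change 1.15) and MEIS1 lower (-0.61).

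All 9 genes lie in the leukocyte receptor complex of chromosome 19 (hg38, GENCODE version 44). LILRB3 (ENSG00000204577, chr19:54216278-54223506), LILRA6 (ENSG00000244482, chr19:54236592-54242791), LILRB2 (ENSG00000131042, chr19:54273812-54281184) and LAIR1 (ENSG00000167613, chr19:54351384-54370558) are on the minus strand. LILRA2 (ENSG00000239998, chr19:54572920-54590287), LILRA1 (ENSG00000104974, chr19:54593582-54602381) and LILRB1 (ENSG00000104972, chr19:54617158-54638022) are on the plus strand. LILRB3 and LILRA6 lie within the span of RPS9, which is on the opposite strand. RefSeq promoter windows (build GRCh38.p14, 250 bases before to 50 after a start site) were found for 8 of the 9 genes, 15 windows in all, and LILRA6 had no entry. Upstream of a start site of LILRA1 (chr19:54594012-54594103, plus strand), LILRB2 (chr19:54280638-54280729, minus strand) and LILRB3 (chr19:54223097-54223187, minus strand), outside annotated exons of each gene, the following stretches, which are related to each other, are shown with any match to CTTCCTGT in capitals, written 5′ to 3′ on the strand of the gene.
LILRA1: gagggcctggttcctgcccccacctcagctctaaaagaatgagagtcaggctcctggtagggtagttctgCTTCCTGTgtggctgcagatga
LILRB2: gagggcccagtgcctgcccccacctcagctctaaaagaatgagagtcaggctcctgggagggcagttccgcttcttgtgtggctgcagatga
LILRB3: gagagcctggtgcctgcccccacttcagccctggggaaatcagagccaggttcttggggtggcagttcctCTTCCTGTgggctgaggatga

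Over these stretches, LILRB2 was identical to LILRA1 in 92.4% of 92 aligned positions and LILRB3 in 76.1% of 92. Windows of LILRA2 and LILRB4 also held a like stretch, identical to LILRA1 in 84.4% of 90 and 68.0% of 97 positions. Those stretches lie largely in annotated exons and are not shown in full. In the windows of LILRA5, LAIR1 and LILRB1, the best alignment to the LILRA1 stretch covered at most 45 positions, so the likeness is not shared by all 8 genes. LILRB2 had no exact match at that place. Except in LAIR1, the capitals mark ACAGGAAG on the opposite strand, a sequence of the kind bound by ETS factors such as PU.1. The motif was chosen after the promoters had been read. It was searched on both strands. It occurred in windows of 4 of the 8 genes, LILRA1, LILRA2, LILRB3 and LILRB4, and in 5 of their 15 windows, some of which overlap. Of all 35116 promoter windows, 2.99% held it. LAIR1 held AGAGGAAG, with the same AGGAAG core, on the opposite strand, and the capitals mark it there. Of all windows, 4.42% held AGAGGAAG. The 30 bases around the match are shown for genes whose window lies in annotated exons of the same gene, LILRA2 (chr19:54573726-54573755, plus strand), LILRB4 (chr19:54662880-54662909, plus strand) and LAIR1 (chr19:54364934-54364963, minus strand).
LILRA2: agagggcagttgcaCTTCCTGTgtggttgc
LILRB4: tgagggcagtttccCTTCCTGTgggctgct
LAIR1: caggacagaaagctCTTCCTCTtgtgtgag

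The match began 91 and 50 bases before the 2 start sites of LILRA2 and 91 before a start site of LILRB4. It began 115 bases before a start site of LILRA1 and 110 before that of LILRB3. In LAIR1, the match to AGAGGAAG began 18 bases before a start site. A match is a description of these letters and not evidence of binding.

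The most abundant receptor in both groups was LAIR1, and it was higher after ANP32B knockdown. LAIR1 had 12.8 and 12.9 TPM in sh-NC, and in sh-ANP32B it had 29.3 and 30.6 TPM. In bulk RNA, more cells that express a gene and more of its RNA per cell cannot be told apart. The groups did not overlap, with means of 12.8 ± 0.0713 TPM (SD, n = 2) and 29.98 ± 0.931 TPM (SD, n = 2), a ratio of 2.34. The log2 fold change, on the log2(TPM + 1) scale, was 1.16 (SE 0.078, limma, Benjamini-Hochberg adjusted p = 2.88e-04). Of all genes tested, 4.66% had a higher one. With each library left out in turn and in every other setting run, LAIR1 was called higher, and its log2 fold change ran from 1.10 to 1.22.

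**Figure D1:**
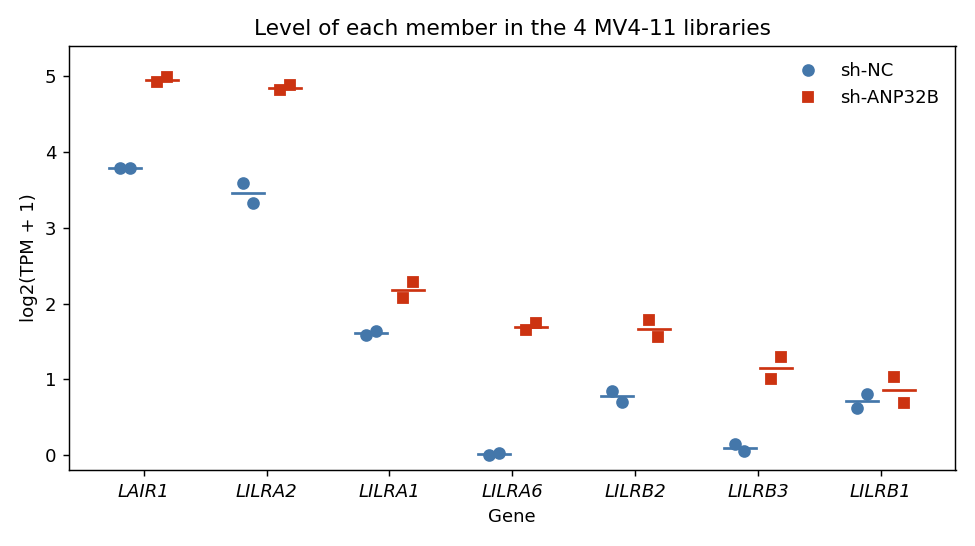
Level of each listed receptor gene as log2(TPM + 1) in each library, with circles for the 2 sh-NC libraries, squares for the 2 sh-ANP32B libraries and a line at the mean of each group. LAIR1 and LILRA2 stand above the other genes in both groups, LILRA6 and LILRB3 stand near 0 in sh-NC, and the groups overlap for LILRB1.

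Among the activating receptors, LILRA2, which recognises immunoglobulins cleaved by microbial proteases, held most of the LILRA signal. LILRA2 had 11.0 and 9.04 TPM in sh-NC and 27.1 and 28.5 TPM in sh-ANP32B. The groups lay further apart than the sh-NC libraries did from each other, with means of 10.03 ± 1.40 TPM (SD, n = 2) and 27.8 ± 0.950 TPM (SD, n = 2). The log2 fold change was 1.39 (SE 0.114, limma adjusted p = 5.06e-04), and 2.72% of all genes tested had a higher one. LILRA2 shares 847 exonic bases with ENSG00000269271, a gene on the same strand that had no symbol, so reads there could be given to either. That gene had 1.10 and 0.851 TPM in sh-NC and 5.59 and 5.36 TPM in sh-ANP32B, also a rise (log2 fold change 1.72, limma adjusted p = 0.00114). In every setting run LILRA2 was called higher, with a log2 fold change from 1.26 to 1.52.

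LILRA1, an activating receptor reported to bind HLA class I, was less abundant, and its call was at the limit. It had 2.00 and 2.11 TPM in sh-NC and 3.205 and 3.86 TPM in sh-ANP32B, so that the groups did not overlap. The log2 fold change was 0.56 (SE 0.181, limma adjusted p = 0.04997, just under the limit). The call was lost without any 1 of the 4 libraries, where the adjusted p in limma ran from 0.0901 to 0.211, and with quantile normalization, where the log2 fold change was 0.29 (limma adjusted p = 0.227). 

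LILRA6 and LILRB3, an activating and an inhibitory receptor with extracellular parts that are close to identical, were at or near 0 in sh-NC. LILRA6 was listed at 0 and 0.0156 TPM in sh-NC and had 2.13 and 2.35 TPM in sh-ANP32B. LILRB3 had 0.102 and 0.0353 TPM in sh-NC and 1.00 and 1.45 TPM in sh-ANP32B. Both were thus detected mainly in the knockdown libraries, at levels that stayed low. LILRA6 differed by 1.69 on the log2 scale (SE 0.224, limma adjusted p = 0.00254), and LILRB3 by 1.05 (SE 0.253, limma adjusted p = 0.0202). These differences depend on the pseudocount, and with 0.1 in place of 1 they were 4.44 and 2.98. Of the stretches of 50 exonic bases of LILRA6, 22.9% also occur in exons of LILRB3, and 18.0% of those of LILRB3 occur in LILRA6, so the authors' counting could split or mix their reads. Summed to 1 row, the pair had 0.102 and 0.0509 TPM in sh-NC and 3.13 and 3.81 TPM in sh-ANP32B, with a log2 fold change of 2.05 (SE 0.218, limma adjusted p = 0.00118). The direction of the sum does not depend on how reads were split between the pair. The sum was under 1 TPM in both sh-NC libraries, so it passed the filter through the sh-ANP32B libraries alone and had to differ. Of the 50-base stretches, 37.3% for LILRB3 and 33.7% for LILRA6 recur on chromosome 19, those shared within the pair included. Whether reads from other genes entered the sum was not tested.

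Of the inhibitory receptors for HLA class I, LILRB2 was higher and LILRB1 overlapped between the groups. LILRB2 had 0.803 and 0.624 TPM in sh-NC and 2.43 and 1.95 TPM in sh-ANP32B, with means of 0.714 ± 0.127 TPM (SD, n = 2) and 2.19 ± 0.339 TPM (SD, n = 2). Its log2 fold change was 0.89 (SE 0.217, limma adjusted p = 0.0211). LILRB2 was under 1 TPM in sh-NC, so this value depends on the pseudocount, and with 0.1 in place of 1 it was 1.49. The ratio of the means was 3.07. With quantile normalization the log2 fold change was 0.58 and the call was lost (limma adjusted p = 0.0831). Without sh-NC replicate 1 or sh-NC replicate 2 the call of LILRB2 was lost (limma adjusted p = 0.0579 and 0.0788), as was that of LILRB3 (limma adjusted p = 0.0671 and 0.0731). LILRB1 had 0.538 and 0.747 TPM in sh-NC and 1.05 and 0.610 TPM in sh-ANP32B. With 1 TPM reached in a single library, LILRB1 stayed out of the main test, and without the filter its log2 fold change was 0.15 (SE 0.248, limma adjusted p = 0.672). A difference was therefore not detectable for LILRB1, which does not show that its level was the same. LILRB1 shares 355 exonic bases with the antisense gene LILRB1-AS1, which had no row, and the handling of strand is not given in the sources used here. Of the 50-base stretches of LILRB2, 11.2% occur in LILRB1.

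In all, 6 of the 7 genes with a row passed the filter of at least 1 TPM in at least 2 libraries, and all 6 were called higher, beside 17.9% of all genes tested. LILRA6, LILRB2 and LILRB3 passed the filter through the sh-ANP32B libraries alone, so they had to differ, and the count is no measure of the family. LAIR1, LILRA2 and LILRA1 had at least 1 TPM in every library. Among genes with at least 1 TPM in every library, all 3 were called higher, beside 17.0% of those genes. Both sh-ANP32B libraries stood above both sh-NC libraries for all 6 receptor genes tested, as they did for 42.5% of all genes tested. For LILRA6, LILRB2 and LILRB3 the filter fixed this in advance, which leaves LAIR1, LILRA2 and LILRA1. Beyond a log2 fold change of 1, 4 receptor genes were called higher, LAIR1, LILRA2, LILRA6 and LILRB3, beside 6.71% of all genes tested.

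**Figure D2:**
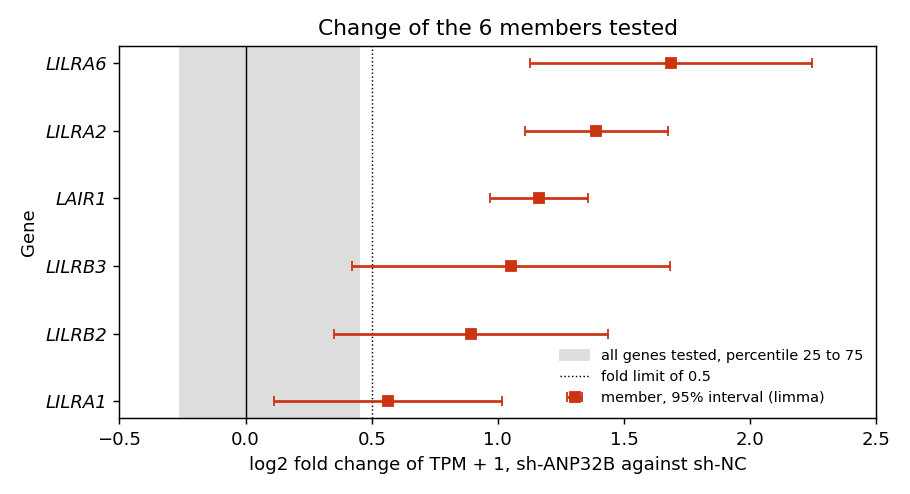
Log2 fold change of TPM + 1, sh-ANP32B against sh-NC, for the 6 receptor genes tested, with 95% intervals from limma; the grey band is the central range of all genes tested, from -0.26 to 0.45. Every point lies right of the fold limit of 0.5, while the intervals of LILRA1, LILRB2 and LILRB3 reach below it. LILRA6, LILRB2 and LILRB3 passed the filter through the sh-ANP32B libraries alone, which fixed their direction.

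The order of the levels was LAIR1, LILRA2, LILRA1, LILRB2, LILRB1, LILRB3 and LILRA6 in sh-NC. In sh-ANP32B it was LAIR1, LILRA2, LILRA1, LILRA6, LILRB2, LILRB3 and LILRB1. LILRA6 thus moved from the last place to the fourth. The ranges of neighbours in this order overlapped for LILRB2 and LILRB1 in sh-NC, and for LILRA6 and LILRB2 and for LILRB3 and LILRB1 in sh-ANP32B. Against all genes listed, the mean of LAIR1 in sh-NC lay above 54.5% of genes and that in sh-ANP32B above 70.7%. LILRB2 went from above 10.8% of genes to above 24.3%.

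The balance of inhibitory and activating receptors was compared within each library, as summed LILRB over summed LILRA TPM. The sum of the 7 genes was 27.2 and 25.4 TPM in sh-NC and 66.3 and 69.4 TPM in sh-ANP32B. The LILRB sum was 0.111 and 0.126 of the LILRA sum in sh-NC, and 0.138 and 0.116 of it in sh-ANP32B. These ratios overlapped between the groups, while both sums were higher after knockdown. LILRA2 held from 81.0% to 84.6% of the LILRA sum over the 4 libraries. LILRB4, the LILRB gene known from monocytic AML, is not in these sums, since it had no row.

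Reads of this region could have been spread over more than 1 copy of each gene. hg38 holds 43 alternate sequences of chromosome 19, and at least 50% of the 50-base exonic stretches of each receptor gene occur without a mismatch on 3 to 9 of them. Whether the authors' index or annotation held these sequences is not given in the sources used here. Of the 18885 identifiers, 1595 had no symbol in the annotation, and whether any is a further copy of a receptor gene was not tested. The missing rows of LILRA5 and LILRB4 therefore do not show that these genes were silent. Further genes of the family, LILRA3, LILRA4, LILRB5, LAIR2 and the pseudogenes LILRP1 and LILRP2, had no row either. The deposited values hold no gene with a mean under the lowest one, which is stated with the processing below. Whether a low level is why any of these genes, LILRA5 and LILRB4 included, had no row was not tested.

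Genes beside the receptors were compared to see how the change ran along the chromosome. Of 30 neighbouring genes, 14 had a row and 13 were tested, of which 2 were higher and 0 were lower in limma (1, LENG8, at an unadjusted p below 0.05), beside 17.9% of all genes tested that were higher and 10.1% that were lower. The higher genes were FCAR, the myeloid receptor for IgA, with 0.287 and 0.158 TPM in sh-NC and 1.53 and 2.68 TPM in sh-ANP32B (log2 fold change 1.32, limma adjusted p = 0.0124), and MBOAT7, a lysophospholipid acyltransferase, with 13.4 and 10.6 TPM against 19.7 and 23.6 TPM (log2 fold change 0.80, limma adjusted p = 0.00722). FCAR was under 1 TPM in both sh-NC libraries and passed the filter through the sh-ANP32B libraries alone. It is also an immunoglobulin-like receptor that signals through the Fc receptor gamma chain. The median log2 fold change of the 13 genes was 0.12, against 0.08 for all genes tested. The neighbours also varied more between replicates, with a median absolute log2 difference of 0.245 in sh-NC and 0.269 in sh-ANP32B, against 0.112 and 0.113 for all genes tested. PRPF31, a splicing factor gene, had 25.8 TPM in sh-NC replicate 1 and 7.17 TPM in sh-NC replicate 2. For the 6 receptor genes tested this difference was 0.0702 in sh-NC and 0.154 in sh-ANP32B. LILRA6 and LILRB3 were near 0 TPM in sh-NC, where log2(TPM + 1) can hardly vary, so the sh-NC value does not show tighter replicates.

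**Figure D3:**
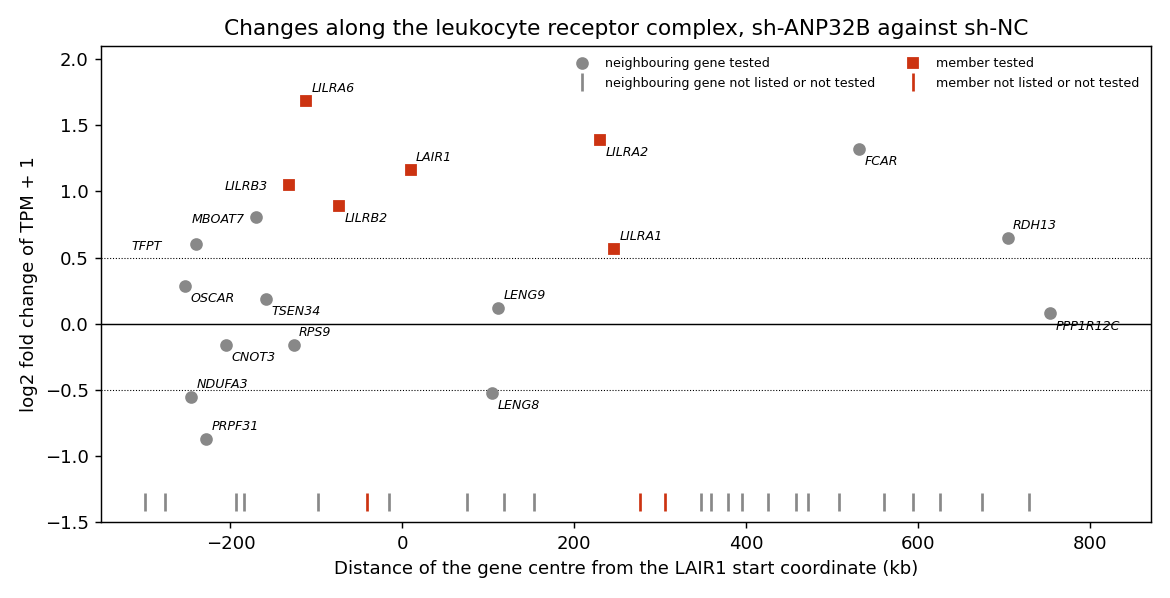
Log2 fold change of TPM + 1, sh-ANP32B against sh-NC, by the distance in kilobases of each gene's centre from the lower end of LAIR1, with squares for receptor genes, circles for neighbouring genes and ticks at the bottom for genes with no row or not tested, further family genes included. All 6 squares lie above the dotted line at 0.5, while the circles range from -0.87 for PRPF31 to 1.32 for FCAR. The filter fixed the direction of LILRA6, LILRB2, LILRB3 and FCAR in advance.

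The signalling partners of these receptors fell into a few strongly higher genes and many with small differences. Of 9 genes of the activating pathway, 8 were tested and 3 were higher, beside 17.9% of all genes. FCER1G, the adaptor of the LILRA receptors, had 24.9 and 30.9 TPM in sh-NC and 169 and 165 TPM in sh-ANP32B (log2 fold change 2.55, limma adjusted p = 9.85e-05). TYROBP, an adaptor with an ITAM used by related receptors, had 40.5 and 35.8 TPM against 396 and 415 TPM (log2 fold change 3.38), and VAV1, an exchange factor downstream, had 63.3 and 64.1 TPM against 97.0 and 90.4 TPM (log2 fold change 0.55). The kinase SYK, which binds the phosphorylated ITAM, had 104 and 102 TPM in sh-NC and 97.1 and 94.0 TPM in sh-ANP32B, and its difference did not pass the test (log2 fold change -0.11, limma adjusted p = 0.0950). The log2 fold changes of PLCG2, LCP2, CARD9 and BTK were between 0.17 and 0.44, inside the fold limit.

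Of 11 genes of the inhibitory pathway, which take in the Src-family kinases that phosphorylate both motifs, 10 were tested, of which 5 were higher and 1 was lower, beside 17.9% and 10.1% of all genes tested. PTPN6 had 124 and 133 TPM in sh-NC and 201 and 207 TPM in sh-ANP32B (log2 fold change 0.66, limma adjusted p = 3.98e-04). The phosphatases PTPN11, which encodes SHP-2, and INPP5D, which encodes SHIP1, were not called, with log2 fold changes of -0.23 and -0.06. The Src-family kinase FGR had 10.8 and 11.97 TPM against 48.4 and 41.3 TPM (log2 fold change 1.88, limma adjusted p = 1.96e-04). The adaptors DOK3 and DOK1 were also higher, with log2 fold changes of 0.64 and 0.60. FYN was lower, with 9.33 and 14.3 TPM against 7.62 and 5.97 TPM, with a log2 fold change of -0.70 (limma adjusted p = 0.0490), and this call was lost without sh-NC replicate 2 and without sh-ANP32B replicate 2.

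Of 24 genes for ligands reported for receptors of the LILR and LAIR family, 14 had a row, 13 were tested and 5 were higher, beside 17.9% of all genes tested. COL4A1, a basement membrane collagen chain of the kind bound by LAIR1, had 1.76 and 1.76 TPM in sh-NC and 12.6 and 13.1 TPM in sh-ANP32B (log2 fold change 2.33, limma adjusted p = 2.17e-04). S100A9 and S100A8, secreted calcium-binding proteins of myeloid cells, had log2 fold changes of 3.44 and 2.08, C1QA, a chain of complement C1q, 1.29, and CD1D, a lipid-presenting molecule, 0.53. S100A8, S100A9 and C1QA were under 1 TPM in both sh-NC libraries, so they passed the filter through the sh-ANP32B libraries alone. The HLA class I genes were not called. HLA-C had 102 and 106 TPM against 137 and 136 TPM, which is inside the fold limit (log2 fold change 0.39), HLA-B had 61.6 and 61.8 TPM against 63.0 and 65.0 TPM, and B2M, the light chain of HLA class I, had a log2 fold change of 0.46.

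**Figure D4:**
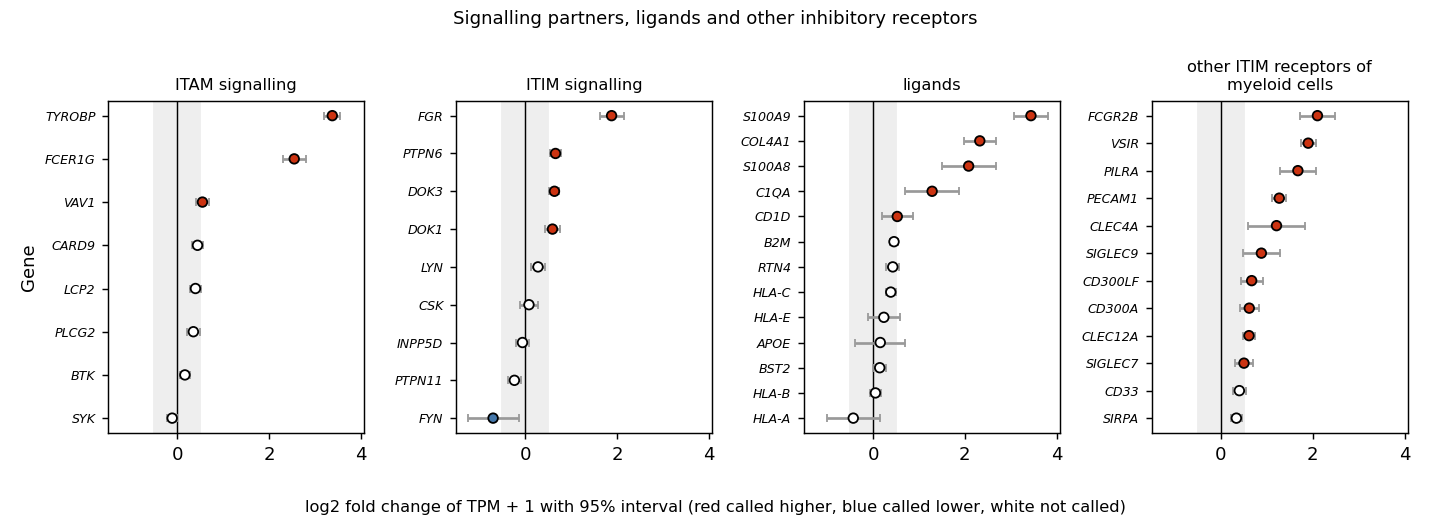
Log2 fold change of TPM + 1 with 95% intervals from limma for the reported genes of the activating (ITAM) and inhibitory (ITIM) pathways, for ligands and for other ITIM receptors, with red points called higher, the blue point called lower and white points not called; the grey band spans the fold limit of 0.5 in either direction. TYROBP and FCER1G stand far right of the other ITAM genes, and FYN is the only gene called lower.

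Other inhibitory receptors of myeloid cells were set beside the LILRB genes. Of 14, 12 were tested and 10 were higher, beside 17.9% of all genes tested, with a median log2 fold change of 0.78. CLEC4A passed the filter through the sh-ANP32B libraries alone. FCGR2B, the inhibitory Fc gamma receptor, had 2.68 and 2.17 TPM in sh-NC and 12.9 and 14.4 TPM in sh-ANP32B (log2 fold change 2.103, limma adjusted p = 3.39e-04). VSIR, a checkpoint receptor, had 18.6 and 20.0 TPM against 74.8 and 74.8 TPM (log2 fold change 1.90, limma adjusted p = 7.11e-05). SIRPA and CD33 were inside the fold limit, with log2 fold changes of 0.34 and 0.40.

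The genes with the profile most like that of LAIR1 were sought by the Euclidean distance of log2(TPM + 1) over the 4 libraries, each profile less its mean. The 5 nearest were LGALS1, a galectin, at a distance of 0.0143, ENSG00000275970, which had no symbol, IFI30, a lysosomal thiol reductase, LINC00963, a long noncoding RNA, and FCGRT, the neonatal Fc receptor, at 0.0394. LGALS1 had 381 and 385 TPM in sh-NC and 834 and 869 TPM in sh-ANP32B. With 4 libraries in 2 groups, this likeness is mainly a like difference between the groups.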

How the data were processed

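The authors aligned reads to hg38 with HISAT2 (version 2.0.5, per the labels and methods) and deposited a table with a value for each gene in each library. The unit, TPM, was read from the deposited values, whose totals lie between 997271 and 998546; the counting tool, annotation and handling of strand are not given in the sources used here. The lowest mean of a listed gene was 0.500 TPM. The study's DESeq2 test needs counts and was not run on TPM. Groups and replicate numbers came from the sample titles. The knockdown columns of the table are marked S3 with the replicate number, and were taken as the sh-ANP32B libraries since the other columns are named as controls. GENCODE version 44 gave symbols for 17290 of 18885 identifiers. A gene was tested if 2 or more libraries reached 1 TPM, on log2(TPM + 1) with limma 3.58.1 (R 4.3.3; lmFit, eBayes with trend) and Benjamini-Hochberg adjustment. They were called at an adjusted p below 0.05 and the study's fold limit of 0.5. An exact permutation test of 2 against 2 libraries cannot give a two-sided p under 0.333. The test was tried on simulated data first.

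The receptor genes, gene lists and tests were chosen with earlier results of these data known. Genes were named by a rule: all 9 receptor genes, ANP32B, tested genes of the lists (for lists over 12 genes the 2 highest and 2 lowest log2 fold changes and those with a known ligand or signalling role), and the 5 genes nearest in profile to the most abundant receptor gene. Further genes named as examples, such as MBOAT7, were taken from the lists after their values were seen. Shared sequence was measured as exact 50-base stretches of merged exons on chromosome 19 and its alternate sequences in hg38. Alternatives were another pseudocount, other filters, other scalings, other call limits, a replicate block, each library left out, and LILRA6 with LILRB3 summed. Some listed genes are counted in their lists but not reported by name here.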

Additional observations from a re-analysis of the deposited data

How the results depend on the processing

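LAIR1 and LILRA2 were called higher in all 12 alternatives run on the whole table, and LILRA6 in the 9 in which it could be tested. LILRB3 was called in 6 of 9, LILRB2 in 5 of 9 and LILRA1 in 2 of 12. The adjusted p of LILRA1 in limma ran from 0.0344 to 0.227; beside the libraries left out, it was lost with a fold limit of 1, a pseudocount of 0.1, no filter, median-of-ratios scaling and the replicate block. With LILRA6 and LILRB3 summed to 1 row, 4 receptor rows were called, the sum included. A call outside the pair was thus lost too, and its gene is not given here. Same-numbered libraries did not deviate together (correlation -0.0232). With the replicate block, 5 receptor genes, 2853 higher and 1671 lower genes were called, and FYN was lost, leaving 0 lower genes of the inhibitory pathway. The 6 called receptor genes became 3 with at least 1 TPM in every library and 3 with quantile normalization, and 2 to 3 with each library left out in turn. Without sh-ANP32B replicate 1 or sh-ANP32B replicate 2, LILRA6, LILRB2 and LILRB3 reached 1 TPM in too few libraries to be tested.

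A fold limit of 1 left 1136 higher and 273 lower genes, 1 higher and 0 lower genes of the inhibitory pathway, 1 neighbouring gene, 5 other ITIM receptors and 0 lower markers of the line (MEIS1 in the main test). Without a filter, 0 inhibitory pathway genes were lower and 1 marker of other blood cells was higher. With at least 1 TPM in every library, 2 ligand genes and 1 neighbouring gene were higher. At an unadjusted p below 0.05, 1 neighbouring gene was lower. With each library left out, from 1 to 5 ligand genes were higher, from 0 to 1 inhibitory pathway genes were lower, and at most 1 neighbouring gene was lower. Each fit with a library left out assumes that the lone library of its group varies like the others. Unknown depth limits the low genes most.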
